A study of Mus musculus with 2 samples.

Results

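The genes described here are 10 markers of the cartilage and bone lineages, Sox9, Dlx5, Runx2, Sp7, Bglap, Bglap2, Acan, Col2a1, Mmp13 and Ostn, followed through mesenchymal cells of mouse hindlimb muscle. They were found by symbol among the 28001 features of each count matrix, and all 10 were present in both. They were chosen by their UMI counts in these same cells, where some of them had been seen to meet in single cells, so their levels and co-detection are given as a description with no test.

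Cartilage and bone cells arise from shared mesenchymal progenitors. Sox9 opens the cartilage programme and activates the genes of its matrix, while Dlx5, Runx2 and Sp7 act along the path to the osteoblast, the cell that lays down bone. Sox9 is also active outside the skeleton, and tendon cells, which anchor muscle to bone, use part of the cartilage matrix where tendons bear compression.

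Hic1 encodes a transcriptional repressor that marks quiescent mesenchymal progenitors. Both libraries came from C57BL/6J mice of the genotype Hic1CreERT2/CreERT2;Rosa26LSLtdTomato/tdTomato, in which tamoxifen (TAM) activates a Cre recombinase placed at the Hic1 locus and switches on the red reporter tdTomato in Hic1-expressing cells and all their descendants. In the E10-P56 library, TAM (7.5 mg) was given to the mother at embryonic day 10 and muscle was taken at postnatal day 56; in the adult pulse library, 5 daily doses of 2.5 mg were given at 8 weeks of age. The study's methods describe pooled tibialis anterior muscles from which tdTomato+ cells were sorted and profiled as single-cell RNA-seq, and elsewhere the study places the adult collection later than the 8 weeks in the labels. With 1 library per labelling time there was no replicate, and the library, the labelling time and the version of the counting software differed together and cannot be told apart. All animals carried CreERT2 on both copies of Hic1, and cells labelled at embryonic day 10 are the progeny of embryonic Hic1+ cells, whereas the adult pulse labelled cells that expressed the gene in the adult.

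Cells were kept from 1500 UMIs upward and with no more than 10% of UMIs from mitochondrial genes, and 6087 of 8236 barcodes of E10-P56 passed, with a median of 7648 UMIs, and 8567 of 9195 in the adult pulse, with a median of 7344. A UMI of tdTomato was found in 95.9% and 99.1% of these cells, respectively, and 15 barcodes occurred in both libraries. Levels are UMIs per 1000000 (CPM) summed over the cells of a type, and ranges in parentheses are exact 95% intervals, Poisson for CPM and Clopper-Pearson for shares. These intervals cover counting error only, since cells of a library are not replicates. Cell types were gated per cell from marker lists that contained none of the 10 genes. Fibroblasts were the most numerous, with 4350 and 6922 cells. Pericytes numbered 467 and 431 and tenocytes 262 and 577. The adult pulse also had 240 myofibre-gated cells, with a median of 10 of 10 fibroblast markers and Sox9 at 39.2 CPM. A cluster of 64 E10-P56 and 67 adult pulse cells, found with the 10 genes left out of the clustering, comes up repeatedly below. It was picked because, of all clusters, it had the highest mean fold of the osteoblast and chondrocyte markers over other cells. It was led by Bglap2, Bglap, Cytl1, Mmp13, Spp1 and Chad, its marker content fell between types, and it is called the Chad-rich cluster after Chad, which encodes the cartilage matrix protein chondroadherin, rather than by a cell type.

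**Figure D1:**
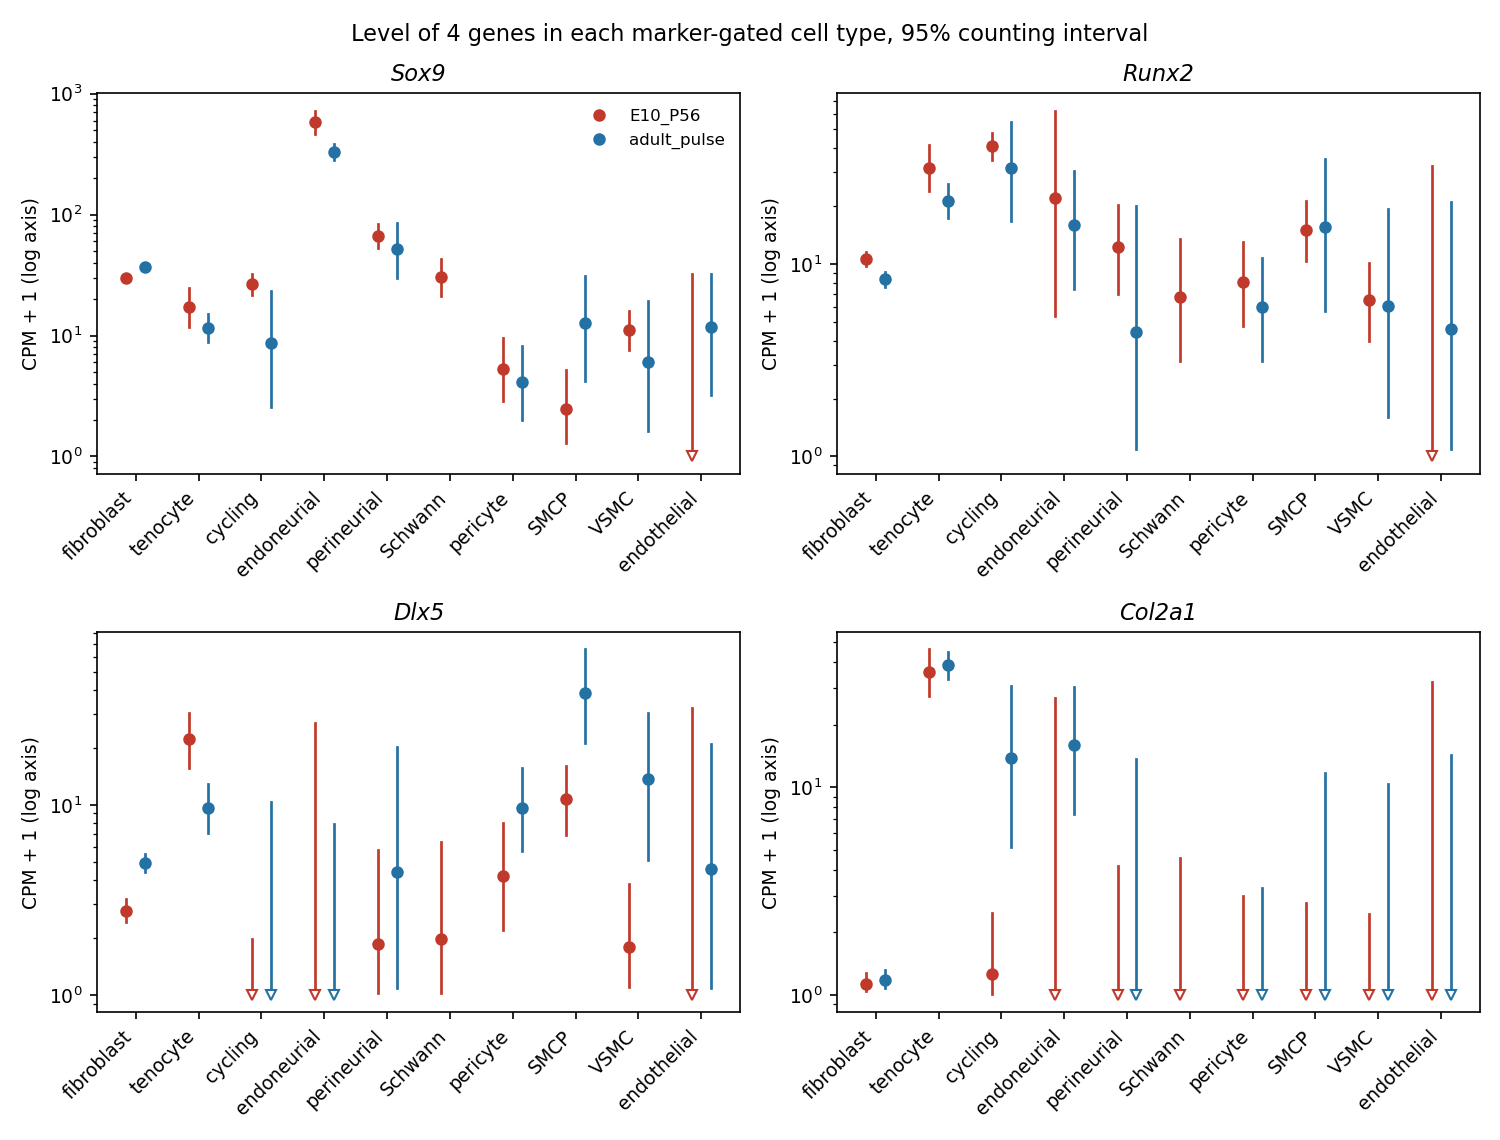
Levels of Sox9, Runx2, Dlx5 and Col2a1 in the gated cell types of at least 20 cells of the E10_P56 (red) and adult_pulse (blue) libraries, as CPM + 1 on a log axis with the exact 95% counting interval; open arrows mark 0 UMIs. Sox9 stood highest in endoneurial-gated cells in both libraries, and Col2a1 was near 35 to 38 CPM in tenocytes and under 0.2 CPM in fibroblasts.

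Sox9, the transcription factor that directs cartilage formation (chr11:112782224-112787760, + strand, GRCm38), was carried by 813 E10-P56 cells with 1782 UMIs and 1243 adult pulse cells with 2383 UMIs. Its level was high in nerve cells. In endoneurial-gated cells, the fibroblast-like cells that lie among nerve fibres, Sox9 stood at 582 CPM (464 to 722) in 24 E10-P56 cells and at 330.2 CPM (283 to 383) in 69 adult pulse cells. A cluster of 65 and 150 cells named endoneurial by the same markers gave 490.2 CPM (420 to 568) and 369.6 CPM (334 to 407), with a Sox9 UMI in 48 and 116 of its cells. Perineurial cells, which form the sheath around nerve bundles, stood at 65.6 CPM (51.7 to 82.1) and 51.4 CPM (28.8 to 84.7). These intervals lie well below those of the endoneurial cells in both libraries. Of the 4 chondrocyte-gated cells of E10-P56, 3 held Sox9, at 524 CPM (351 to 753), an interval that overlapped that of the endoneurial cells. The 7 chondrocyte-gated cells of the adult pulse held 0 Sox9 UMIs, which at 3 counts allows up to 42.6 CPM.

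The share of cells with a Sox9 UMI was likewise high in endoneurial-gated cells, but it did not follow the levels throughout. In E10-P56 it was 30.2% in cycling cells and 22.6% in perineurial cells, with median depths of 32395 and 4862 UMIs. In the adult pulse, 72.5% of endoneurial-gated cells held a Sox9 UMI against 0.928% of pericytes, a vascular type that served as the low reference, with median depths of 7201 and 3254 UMIs. After every cell was thinned to 1500 UMIs, the shares were 37.7% and 0.232% in the adult pulse and 62.5% and 0.428% in E10-P56. Fibroblasts held an intermediate level, 29.0 CPM (27.5 to 30.6) in E10-P56 and 35.6 CPM (34.1 to 37.2) in the adult pulse. In E10-P56 the Schwann-gated cells at 29.8 CPM and cycling cells at 25.6 CPM had intervals that overlapped that of fibroblasts. Tenocytes (16.2 and 10.6 CPM) and pericytes (4.33 and 3.09 CPM) were lower in both libraries. Outside the Chad-rich cluster tenocytes stood at 3.51 CPM in E10-P56 and 9.10 CPM in the adult pulse.

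Fibroblasts were not uniform in Sox9. Among 6 fibroblast-named clusters of at least 100 cells in E10-P56, 1 cluster led by Krtdap, Dmkn and Bmp3 held 8.14 CPM, with an upper limit of 10.1, against 25.6 to 38.5 CPM in the others. Among 5 such clusters in the adult pulse, a cluster led by Smpd3 and Dact2 held 7.65 CPM, with an upper limit of 9.47. The next cluster above it had a lower limit of 17.7, and the highest reached 50.02 CPM. Runx2 was lowest in the same clusters, at 0.412 CPM where the others ran from 5.77 to 12.4 CPM (E10-P56) and at 0.456 CPM where they ran from 2.02 to 12.2 CPM (adult pulse). In each library, then, the fibroblast cluster poorest in Sox9 was also the poorest in Runx2. Fibroblast clusters divided largely by library. The cluster led by Krtdap had 1056 E10-P56 and 20 adult pulse cells, and that led by Smpd3 had 35 and 1399. Each was thus ranked in only 1 library, and whether they are the same kind of fibroblast was not tested.

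Runx2, the transcription factor required for osteoblast formation (chr17:44495987-44814797, - strand), was spread thinly, with 748 UMIs in 472 E10-P56 cells and 581 UMIs in 474 adult pulse cells. Among named types it was highest in cycling cells of E10-P56, at 39.8 CPM (33.7 to 46.7), a type with a median of 32395 UMIs per cell. Tenocytes followed at 30.7 CPM (22.8 to 40.3), an interval that overlapped that of cycling cells, but at 19.6 CPM (13.1 to 28.4) without the Chad-rich cluster, below it. In the adult pulse the 22 cycling cells held 30.6 CPM (15.8 to 53.4) and tenocytes 20.4 CPM (16.4 to 24.97). Fibroblasts stood lower in both, at 9.57 and 7.31 CPM. Tenocytes were then split by Col22a1, which encodes a collagen of tissue junctions such as that between muscle and tendon, a split chosen after the values were seen and made outside the Chad-rich cluster. In the adult pulse, Runx2 was 25.8 CPM (20.2 to 32.6) in tenocytes with a Col22a1 UMI and 6.09 CPM (2.92 to 11.2) in those without. In E10-P56 the corresponding levels, 30.8 and 13.8 CPM, had overlapping intervals.

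Dlx5, a homeobox factor that acts early in bone formation (chr6:6877805-6882085, - strand), had 156 UMIs in 116 E10-P56 cells and 335 UMIs in 168 adult pulse cells. Outside the Chad-rich cluster it was found in smooth muscle cell progenitors (SMCPs), at 9.66 CPM (5.90 to 14.9) in E10-P56 and 37.8 CPM (20.1 to 64.7) in the adult pulse. Fibroblasts outside the cluster held 1.39 and 1.96 CPM and pericytes 3.25 and 8.65 CPM. In the adult pulse the upper limits of both lay below the lower limit of the SMCPs, but the VSMCs at 12.6 CPM (4.10 to 29.5) overlapped them. In E10-P56 the pericyte interval (1.19 to 7.06) overlapped that of the SMCPs. Tenocytes of E10-P56 read 21.04 CPM, but only 0.702 CPM once the Chad-rich cluster was left out. In that cluster Dlx5 reached 129 CPM (98.3 to 167) and 249.5 CPM (215 to 288), and 24 of 64 and 46 of 67 cells carried it.

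Sp7, the osteoblast factor osterix (chr15:102356606-102367182, - strand), was scarce, with 18 UMIs in 16 E10-P56 cells and 19 UMIs in 14 adult pulse cells. In the adult pulse, 73.7% of these UMIs lay in the Chad-rich cluster, against 22.2% in E10-P56. The cluster made up 0.782% and 1.05% of the kept cells, respectively. Outside it, the few Sp7 UMIs were scattered over several types and no type could be ranked at this depth.

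Col2a1, the main fibrillar collagen of cartilage (chr15:97975602-98004695, - strand), had most of the cells with a UMI among tenocytes. Its UMIs were placed otherwise in E10-P56, where 1 chondrocyte-gated cell held 136 of 208 and tenocytes held 58. Tenocyte-gated cells held 34.9 CPM (26.5 to 45.1) in E10-P56, with a UMI in 43 of 262 cells, and 37.6 CPM (32.2 to 43.7) in the adult pulse, with a UMI in 107 of 577 cells. Fibroblasts held 0.126 and 0.176 CPM, and 3 endoneurial-gated cells of the adult pulse held 8 UMIs. No pericyte of either library had a Col2a1 UMI, 0 of 467 and 0 of 431, which at 3 counts allows shares of cells with a UMI of up to 0.642% and 0.696%. Median depth was 4886 and 6749 UMIs in tenocytes and 3271 and 3254 in pericytes, and with every cell thinned to 1500 UMIs the tenocyte shares were 6.87% and 4.85%, down from 16.4% and 18.5%, with pericytes still at 0. The tenocyte level did not rest on the Chad-rich cluster, since it was 40.0 and 38.7 CPM with those cells left out.

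Acan, which encodes aggrecan, the large proteoglycan that holds water in cartilage (chr7:79053483-79115099, + strand), followed a different course. E10-P56 had 251 UMIs in 68 cells and the adult pulse 25 UMIs in 15 cells. In E10-P56, tenocytes read 22.2 CPM (15.7 to 30.7), but 0.702 CPM outside the Chad-rich cluster, so that almost all of their Acan came from those cells. Vascular smooth muscle cells (VSMCs) of E10-P56 held 15.2 CPM (10.8 to 20.8), with a UMI in 25 of 269 cells. Of 59 adult pulse VSMCs, 0 held an Acan UMI, which at 3 counts allows a share of cells with a UMI of up to 5.08% and a level of up to 7.59 CPM. SMCPs of E10-P56 read 9.18 CPM, from 5 cells.

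Bglap and Bglap2 encode osteocalcin, the small protein that mature osteoblasts deposit in bone matrix. Mice carry these genes side by side on chromosome 3 with a further copy, Bglap3. Bglap lies at chr3:88383501-88384464 and Bglap2 at chr3:88377736-88378699, both on the - strand. Their coding sequences, from the GENCODE transcripts of GRCm38, are shown because they are so alike that the counts of the copies have to be read together. Capitals mark the bases at which they differ:
Bglap: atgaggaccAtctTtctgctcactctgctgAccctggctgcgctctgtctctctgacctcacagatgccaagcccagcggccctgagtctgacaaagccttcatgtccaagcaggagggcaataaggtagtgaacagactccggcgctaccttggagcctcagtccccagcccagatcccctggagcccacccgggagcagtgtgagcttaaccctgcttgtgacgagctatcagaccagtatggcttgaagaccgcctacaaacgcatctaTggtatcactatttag
Bglap2: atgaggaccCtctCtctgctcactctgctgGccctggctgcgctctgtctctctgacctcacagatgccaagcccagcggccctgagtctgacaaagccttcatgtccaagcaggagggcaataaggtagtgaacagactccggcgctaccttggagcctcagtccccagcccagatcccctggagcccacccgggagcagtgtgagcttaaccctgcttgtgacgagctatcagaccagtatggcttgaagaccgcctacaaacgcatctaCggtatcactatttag
Only 4 of 288 coding bases differ (98.6% identity), and the last 134 bases of the transcripts, beyond the stop codon, are identical. Bglap3 shares 95.5% of coding bases with Bglap and 96.9% with Bglap2. The counts of reads that end in these genes can thus be split between the copies in a way that the deposited counts do not show, and the level of each copy is uncertain.

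Taken as deposited, Bglap had 66 UMIs in 29 E10-P56 cells and 460 UMIs in 33 adult pulse cells. Bglap2 had 1 UMI in E10-P56 and 539 UMIs in 30 adult pulse cells. Bglap2 accordingly made up 1.49% (0.0378 to 8.04) of the UMIs of both copies in E10-P56, against 54.0% (50.8 to 57.1) for the adult pulse. The cells and the version of the counting software differed together here, and their parts in this shift cannot be told apart. Nearly all adult pulse UMIs lay in the Chad-rich cluster, 98.04% for Bglap and 97.8% for Bglap2, where the levels were 615 CPM (559 to 674) and 719 CPM (658 to 783). In E10-P56 the cluster held 63.6% of the Bglap UMIs, at 91.9 CPM (66.3 to 124).

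Mmp13, the collagenase that degrades type II collagen in cartilage and is made by hypertrophic chondrocytes and osteoblasts (chr9:7272514-7283331, + strand), had 9 UMIs in 7 E10-P56 cells. The adult pulse had 316 UMIs in 21 cells, of which 225 came from a single osteoblast-gated cell. The Chad-rich cluster held 95.6% of the adult UMIs and stood at 412 CPM (367 to 461), or 109 CPM without that cell.

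RUNX factors, the family of Runx2, recognise the letters ACCACA, or TGTGGT on the other strand. RefSeq promoter windows are the 250 bases before the transcription start on GRCm38.p6. They were at hand for 4 of the 10 genes (Runx2, Acan, Bglap and Mmp13). Those of Bglap and Mmp13 are shown as examples of windows that hold the motif. In the adult pulse most UMIs of both genes lay in the Chad-rich cluster. So did most UMIs of Acan, whose window has no match, and in E10-P56 most Mmp13 UMIs lay outside the cluster. Whether RUNX factors act on these windows was not tested. Capitals mark the motif. The Bglap window is chr3:88384467-88384716 (- strand) and the Mmp13 window chr9:7272264-7272513 (+ strand):
Bglap: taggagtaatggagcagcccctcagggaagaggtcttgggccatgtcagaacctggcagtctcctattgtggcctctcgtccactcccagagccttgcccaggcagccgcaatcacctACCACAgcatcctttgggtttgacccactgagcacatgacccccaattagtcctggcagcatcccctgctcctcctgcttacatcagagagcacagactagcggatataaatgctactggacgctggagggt
Mmp13: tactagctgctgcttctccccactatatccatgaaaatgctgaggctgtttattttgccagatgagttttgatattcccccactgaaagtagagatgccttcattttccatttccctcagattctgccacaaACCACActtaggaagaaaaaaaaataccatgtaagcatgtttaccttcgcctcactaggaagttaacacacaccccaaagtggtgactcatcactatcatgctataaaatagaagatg
The motif begins 132 bases before the start of Bglap and 118 bases before that of Mmp13. Runx2 itself had 1 match, 80 bases before its start, and Acan had none. Of 32817 promoter windows, 4608 (14.0%) hold the motif, so a match is a description of the letters and shows no binding.

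Ostn encodes osteocrin, also called musclin, a small secreted protein of bone and muscle that binds the natriuretic peptide clearance receptor (chr16:27307489-27351212, + strand). It had 101 UMIs in 22 E10-P56 cells and 92 UMIs in 19 adult pulse cells. The Chad-rich cluster held 94.1% and 98.9% of them. Its level there was 208 CPM (168 to 254) in E10-P56 and 124 CPM (99.9 to 152) in the adult pulse. The clearance receptor, the related receptors and their ligand Nppc had too few UMIs in the cluster for a comparison between libraries.

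**Figure D2:**
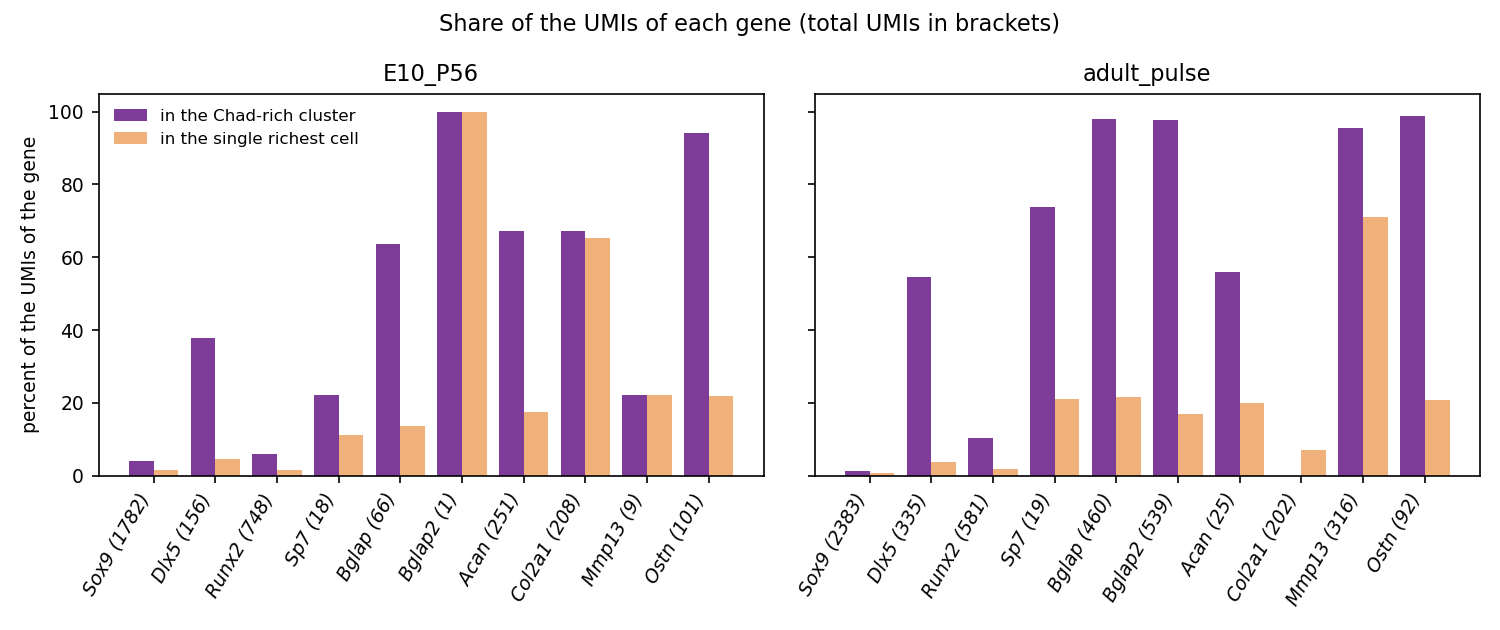
Percent of the UMIs of each gene that lay in the Chad-rich cluster (purple) and in the single cell richest in the gene (orange), in each library, with the total UMIs in brackets. More than 94% of Ostn UMIs lay in the cluster in both libraries, whereas Sox9 had 4.04% and 1.22% of its UMIs there.

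Across named types of at least 30 cells, 4 genes (Bglap, Bglap2, Acan and Col2a1) had their highest level in the same type in both libraries, and this type was the tenocyte, although for Bglap2 in E10-P56 this was 1 UMI and no order could be read. Sox9 was not among them because the 24 endoneurial-gated cells of E10-P56 were too few to be ranked. With types of at least 20 cells it was highest in endoneurial-gated cells in both libraries. The interval of the highest type lay apart from that of the next in 8 of the 20 combinations of gene and library. Without the Chad-rich cluster 2 genes had a shared highest type, Col2a1 in tenocytes as before and Dlx5 in SMCPs. The same counts were not made over all genes, so whether they are high or low for a set of genes cannot be told.

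The Chad-rich cluster held cells of several gates, with 34 tenocyte-gated and 20 fibroblast-gated cells in E10-P56 and 14 and 46 in the adult pulse. All 7 tenocyte markers were detected in it, at a summed 5081 and 2972 CPM against 707 and 1546 CPM in all other cells. Chondrocyte markers were detected for 13 of 14 genes in E10-P56 and 5 of 14 in the adult pulse, at a summed 3643 and 942 CPM against 19.6 and 51.8 CPM elsewhere. Without the cell richest in them, 8 and 5 were detected, at 1536 and 777 CPM. Chad alone made up nearly all of the adult pulse sum and a large part of that of E10-P56. It stood at 1478 CPM in E10-P56 and 926 CPM in the adult pulse, or 1346 and 760 CPM without the cell richest in Chad. The remaining chondrocyte markers were thus scarce in the adult pulse. Of 9 osteoblast markers, 3 and 5 were detected, at 125 and 301 CPM against 13.1 and 24.9 CPM, and Dmp1, Phex, Mepe and Sost, which mark osteocytes, were at 0 in both libraries. The osteoblast sums rested largely on 1 cell in each library and were 13.3 and 106 CPM without it. The cluster had been picked by the chondrocyte and osteoblast markers, which were not kept out of the clustering. Their excess over other cells therefore follows from the choice and is no separate result. Fibroblast markers summed to 14056 and 28775 CPM, and the median cluster cell held 6 and 7 of the 10 fibroblast markers, 3 tenocyte markers in both libraries, 1 chondrocyte marker and 0 osteoblast markers.

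**Figure D3:**
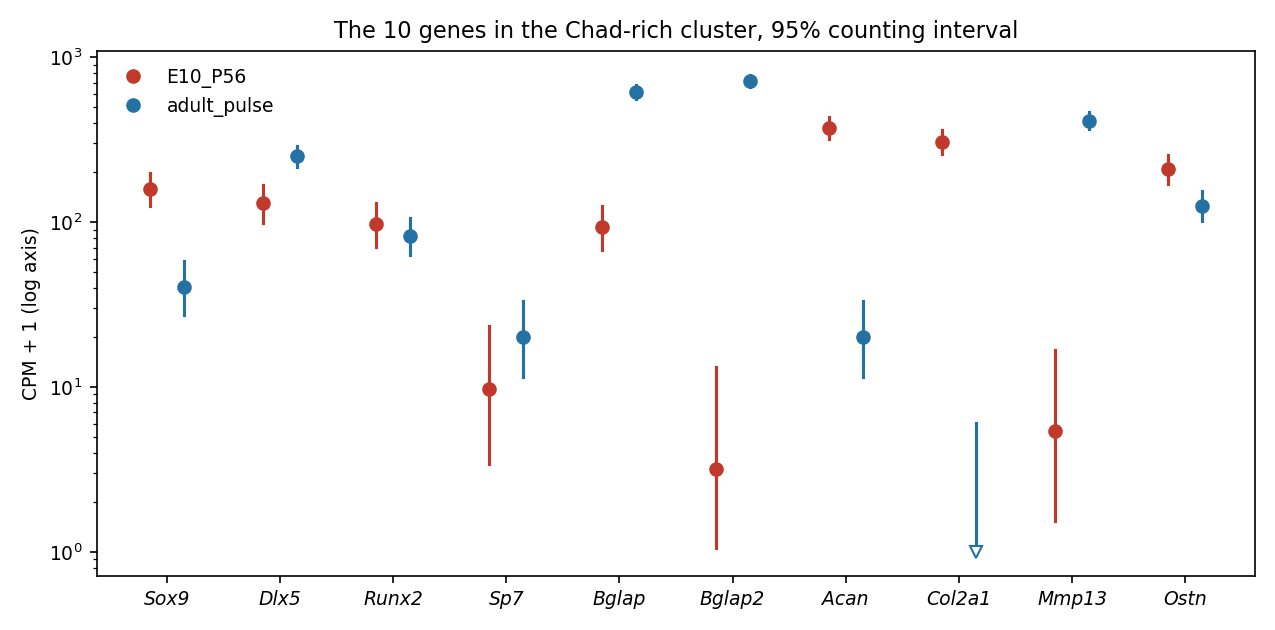
Levels of the 10 genes in the Chad-rich cluster (64 E10_P56 and 67 adult_pulse cells), as CPM + 1 on a log axis with exact 95% counting intervals; the open arrow marks 0 UMIs. Sox9, Acan and Col2a1 stood higher in E10_P56 (136 of 140 Col2a1 UMIs from 1 cell), and Bglap, Bglap2 and Mmp13 in adult_pulse (225 of 302 Mmp13 UMIs from 1 cell).

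Within the cluster the libraries leaned to opposite sides of the set. Of 9 genes with enough UMIs to compare, 3 were at least 2-fold higher in E10-P56 (Sox9, Acan and Col2a1), where 4.23% of 1796 genes were, and 3 were at least 2-fold higher in the adult pulse (Bglap, Bglap2 and Mmp13), where 4.12% of genes were. Acan stood at 369.9 CPM (316 to 430) in E10-P56 and 19.1 CPM (10.4 to 32.0) in the adult pulse, 19.4-fold apart (11.2 to 36.2), and 22.9-fold without the richest cell of each library. Sox9 stood at 158 CPM (123 to 198) and 39.5 CPM (26.5 to 56.8), 3.99-fold apart (2.56 to 6.36). Acan and Sox9 were carried by 27 and 21 of the 64 E10-P56 cells, though the richest cells held 44 and 39 of the 169 Acan UMIs. In the adult pulse, 6 and 16 of the 67 cells carried them, so the shares of cells, not corrected for depth, were closer for Sox9 (32.8% and 23.9%).

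Col2a1 was at 306 CPM in E10-P56 and at 0 in the adult pulse. That value rested on 1 cell, which held 136 of the 140 UMIs, and without it the level was 9.09 CPM, from 4 UMIs, too few to compare. Bglap was 6.69-fold higher in the adult pulse (4.87 to 9.41). Bglap2 was 328-fold higher (58.7 to 12989) and Mmp13 94.1-fold higher (25.8 to 780), against 1 and 2 UMIs in E10-P56. Of the 302 adult pulse UMIs of Mmp13 in the cluster, 225 came from 1 cell. Without the richest cell of each library 77 were left there and 0 in E10-P56, too few to compare. Of the genes past 2-fold in the cluster, Acan, Bglap and Bglap2 stayed so without their richest cells. Bglap and Bglap2 can be the same signal counted under both names, so they are not separate results. How their reads were split between the copies was not tested, and no ratio was taken of both copies together. Sox9 was then 3.76-fold higher in E10-P56, but its 55 and 24 UMIs were too few to compare. Dlx5 was 1.93-fold higher in the adult pulse (1.43 to 2.64), Ostn 1.68-fold higher in E10-P56 (1.24 to 2.26), and Runx2 stood at 96.3 CPM (70.0 to 129) and 81.8 CPM (62.4 to 105.3) with overlapping intervals. Runx2 and the musclin gene thus differed less between the libraries than the matrix genes on either side.

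Cells were also counted by the matrix genes they held. In E10-P56, 19 cluster cells held only the cartilage genes Acan or Col2a1, 11 only the bone genes Sp7, Bglap, Bglap2 or Mmp13, 10 held both kinds and 24 neither. The adult pulse numbers were 1, 21, 5 and 40. With Sox9 counted among the cartilage genes, they were 25, 11, 10 and 18 in E10-P56, against 8, 15, 11 and 33 for the adult pulse.

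Several of these genes met in the same cells. At least 3 of the 10 were detected in 28 of 6087 E10-P56 cells (0.460%, 0.306 to 0.664) and in 32 of 8567 adult pulse cells (0.374%, 0.256 to 0.527). Of these, 24 and 27 belonged to the Chad-rich cluster. Their median depth was 7067 UMIs against 7654 in other cells of E10-P56, and 10306 against 7331 in the adult pulse. After thinning to 1500 UMIs per cell, 8 and 13 such cells were left. Of the 28 and 32 cells before thinning, 1 and 3 carried a doublet score in the top 5% of their library. The largest number of genes met in a cell was 6 in E10-P56, in 2 cells, and 9 in the adult pulse, in 1 cell.

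**Figure D4:**
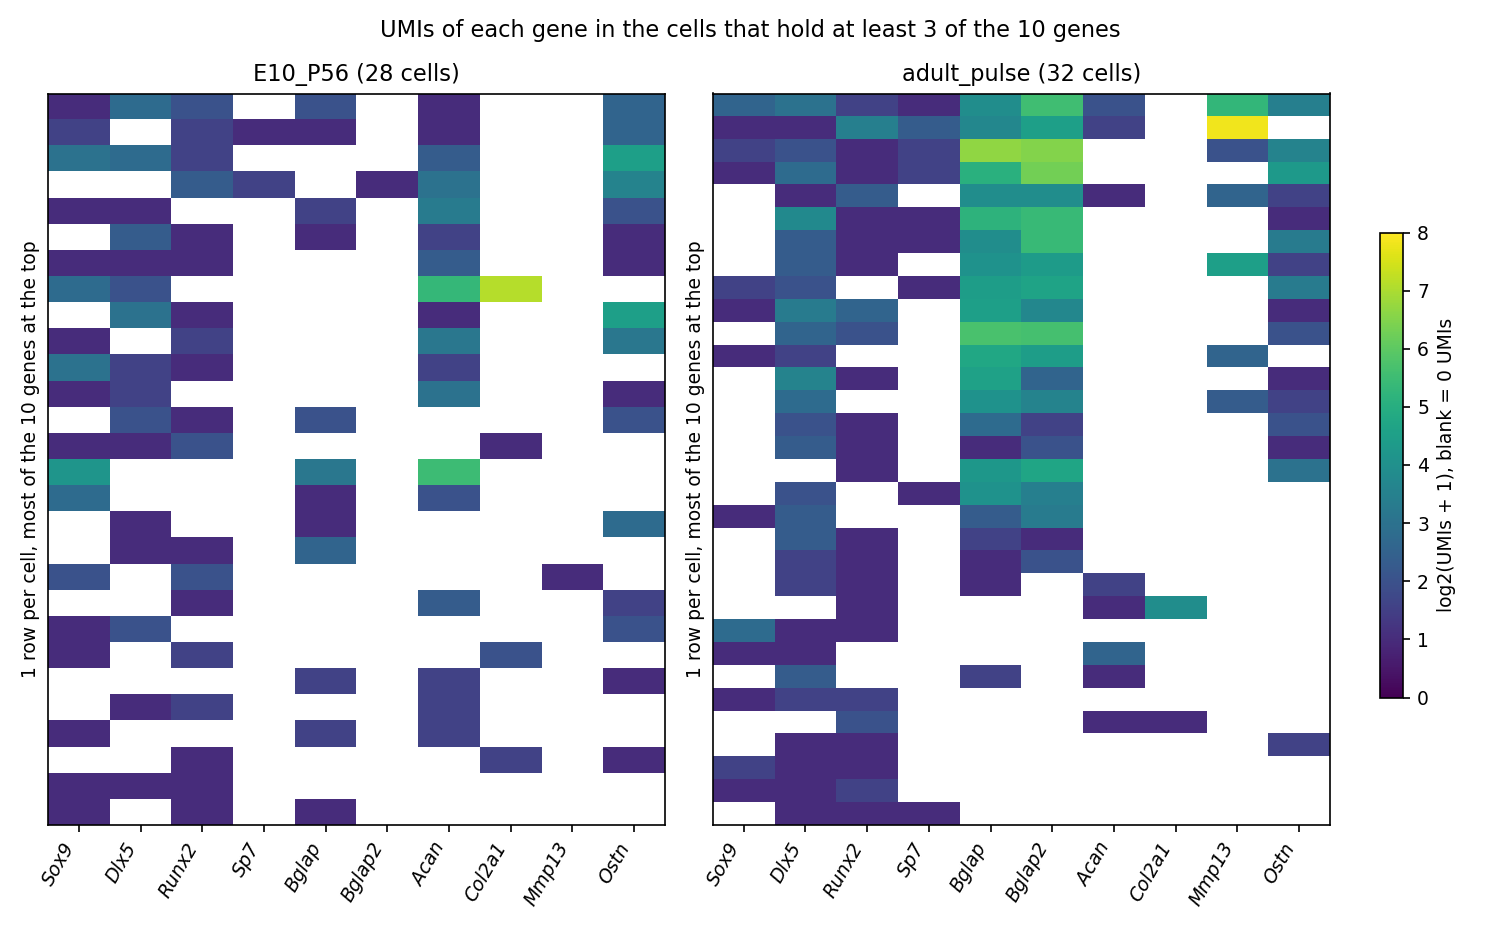
UMIs of each of the 10 genes in every cell that held at least 3 of them, 28 cells of E10_P56 and 32 of adult_pulse, ordered with most genes at the top; colour gives log-scaled UMIs. Bglap2 fills many rows of the adult_pulse panel and 1 row of the E10_P56 panel, where Acan and Sox9 recur.

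In the adult pulse, pairs with osteocalcin were frequent, but not the only frequent ones. In the Chad-rich cluster, all 21 cells with a Bglap2 UMI also held Bglap, 24 of 25 cells with Bglap held Dlx5, all 7 with Mmp13 held Bglap, and 15 of 18 with Ostn held Bglap. Dlx5 was in 46 of the 67 cluster cells and met Runx2 in 24, as often as it met Bglap. Since the osteocalcin copies are so alike, Bglap with Bglap2 can be the same signal counted under both names. With the copies taken as 1 gene, 28 E10-P56 and 32 adult pulse cells still held at least 3 genes. The cell with 9 genes, all but Col2a1, had 17743 UMIs, among them 14 of Bglap, 46 of Bglap2, 38 of Mmp13 and 10 of Ostn, and was gated as a fibroblast. Another fibroblast-gated cell held 100 UMIs of Bglap and 91 of Bglap2. A cell of 28030 UMIs was osteoblast-gated and held 225 UMIs of Mmp13, 10 of Runx2, 4 of Sp7, 12 of Bglap and 22 of Bglap2 beside 695 of Spp1 (osteopontin), 129 of Ibsp (bone sialoprotein), 14 of Alpl (the phosphatase that drives mineral formation) and 1441 of Col1a1. That cell accounted for nearly all Spp1 in the cluster, 695 of 698 UMIs.

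In E10-P56, the largest pair counts were those with Acan, by a small margin. In the Chad-rich cluster, 13 cells held Acan with Sox9 and 13 held Acan with Dlx5, 12 of 16 cells with Ostn held Acan, and 11 of 18 with Bglap held Runx2. Of the 64 cluster cells, 27 held Acan, 21 Sox9 and 24 Dlx5. Runx2 met Dlx5, Acan and Ostn in 11 cells each. The pair counts that these shares alone would give were not computed for either library. A chondrocyte-gated cell of 16702 UMIs held 136 of the 208 Col2a1 UMIs of the library with 39 of Acan, 6 of Sox9 and 3 of Dlx5. It also held 530 UMIs of Cytl1, 122 of Snorc, 43 of Col9a1, 60 of Col9a2 and 80 of Col9a3, which are cartilage genes, and only 3 of Col1a1. A further chondrocyte-gated cell held 44 UMIs of Acan, 17 of Sox9 and 8 of Bglap. Both of these cells lay in the Chad-rich cluster.

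Over all kept cells, 9 genes had at least 100 UMIs in both libraries together and could be compared. Acan was higher in E10-P56, 10.9-fold (7.25 to 17.2), where 7.69% of 13275 genes were at least 2-fold higher. Bglap was 6.39-fold (4.93 to 8.40), Bglap2 494-fold (88.3 to 19560) and Mmp13 32.2-fold (16.7 to 71.1) higher in the adult pulse, where 4.59% of genes were at least 2-fold higher. Without the richest cell of each library, Mmp13 was 11.9-fold higher in the adult pulse, but its 7 and 91 UMIs fell short of the 100 asked for and its call was lost. Bglap2 had 0 UMIs left in E10-P56. The ratios of the osteocalcin copies are not separate results here either, since both can be the same signal. Bglap was then 5.79-fold higher in the adult pulse and Acan 11.3-fold higher in E10-P56, while Col2a1 came out 2.39-fold higher in the adult pulse.

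The other genes lay within 2-fold. Dlx5 was 1.97-fold higher in the adult pulse (1.62 to 2.40) and Sox9 1.23-fold higher. Runx2 was 1.40-fold higher in E10-P56 (1.26 to 1.57) and Ostn 1.20-fold higher. Col2a1 was 1.12-fold higher in E10-P56 (0.921 to 1.37), but 2.39-fold higher in the adult pulse without the richest cell of each library, a turn of direction that rests on the chondrocyte-gated cell of E10-P56. The median gene stood 0.11 higher in E10-P56 on the log2 scale, and the ratios above are not corrected for it. Within fibroblast-gated cells, 3 of 6 compared genes were at least 2-fold higher in the adult pulse (Dlx5, Bglap and Bglap2, against 4.8% of all genes) and none in E10-P56 (4.6% of all genes). Of the UMIs in adult pulse fibroblasts, 318 of 325 for Bglap and 406 of 416 for Bglap2 came from cells of the Chad-rich cluster. For Dlx5 it was 114 of 224, and outside the cluster fibroblasts stood at 1.39 and 1.96 CPM, within 2-fold. Within tenocyte-gated cells, neither of the 2 genes compared, Runx2 and Col2a1, was past 2-fold, where 4.42% of genes were higher in E10-P56 and 2.81% were lower. The 95% interval of the Col2a1 ratio in tenocytes, E10-P56 over adult pulse, ran from 0.676 to 1.26. In the endoneurial cluster Sox9 was 1.33-fold higher in E10-P56 (1.10 to 1.59), short of 2-fold, where 3.09% of genes were past it in that direction and 2.96% in the other. Outside the Chad-rich cluster, 4 genes could be compared, and Col2a1 alone was past 2-fold, 2.73-fold higher in the adult pulse (2.07 to 3.65), where 4.53% of genes were higher in that library and 7.7% in the other. Tenocytes held 57 of these 68 Col2a1 UMIs in E10-P56 and 170 of 202 in the adult pulse. Their levels were close, 40.0 and 38.7 CPM, but they numbered 228 and 563 cells. Acan fell just short of the 100 UMIs asked for there, and its 82 UMIs in E10-P56 against 11 in the adult pulse gave an 8.10-fold difference (4.30 to 16.9). The difference in Acan was thus not confined to the cluster. Its highest E10-P56 level there was in VSMCs, at 15.2 CPM. E10-P56 had 269 VSMCs and 183 SMCPs, against 59 and 60 in the adult pulse. How far these cell numbers make up the difference was not tested.

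Other genes of the cartilage and bone pathways were read from lists. The cells that held at least 3 of the 10 genes were themselves chosen by cartilage and bone genes. Of these cells, 24 of 28 and 27 of 32 lay in the Chad-rich cluster, and the lists share genes with the markers that picked it. Their excess of list genes over other cells thus follows in part from the choice and is no separate result. In the cells that held at least 3 of the 10 genes, 12 of 14 tested cartilage matrix genes were at least 2-fold higher than in all other cells of E10-P56, where 3.21% of all genes were, and 4 of 14 in the adult pulse, where 4.83% were. Without the chondrocyte-gated cell of 16702 UMIs, 5 remained in E10-P56 (Col11a1, Hapln1, Comp, Chad and Cilp2), and without the cell richest in the list the adult pulse count stayed at 4. Chad stood at 1317 CPM in these cells against 16.4 CPM elsewhere in E10-P56 and at 422 against 43.8 CPM in the adult pulse. Comp, a matrix protein of cartilage and tendon, stood at 1026 against 55.8 CPM and at 549 against 67.5 CPM. Bone matrix genes were higher for 6 of 15 in E10-P56 and 10 of 15 in the adult pulse, among them Col1a1, the main collagen of bone and tendon, at 22588 CPM against 5822 CPM in the adult pulse. Without the osteoblast-gated cell the adult pulse count was 7, and without the chondrocyte-gated cell the E10-P56 count was 4. Of 10 osteoblast regulators, 3 and 4 were higher, with Twist1, which restrains Runx2, at 322 against 141 CPM and at 306 against 136 CPM. Of 7 tested chondrogenic regulators, 2 (E10-P56) and 1 (adult pulse) were higher. The median ratios of that list were 1.18 and 0.521, against 0.886 and 0.976 over all genes, so most of it was not raised. From that list, Pth1r, the receptor of parathyroid hormone, was 8.07-fold higher in these cells of the adult pulse. Trps1, a repressor in growth plate cartilage, was 2.99-fold higher in those of E10-P56. Of 7 genes that act with collagenase, none was higher in E10-P56 and 3 were in the adult pulse, Mmp2, Mmp14 and Timp1.

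Between the libraries, in the Chad-rich cluster, 4 of 8 compared cartilage matrix genes were at least 2-fold higher in E10-P56 and none in the adult pulse, with a median ratio, E10-P56 over adult pulse, of 2.05 against 0.995 over all genes. They were Col11a1 (2.20-fold), Cilp2 (2.80-fold), Snorc and Cytl1, and the last pair came almost wholly from the chondrocyte-gated cell. Without the richest cell of each library Col11a1 was 1.91-fold and Cilp2 2.75-fold higher, so that of the 4 only Cilp2 passed 2-fold with enough UMIs to compare. Of 8 bone matrix genes, 2 were higher in the adult pulse, Omd (2.10-fold) and Spp1 (43.5-fold, from the osteoblast-gated cell), and none in E10-P56, with a median ratio of 1.13, slightly towards E10-P56. Without its richest cells Spp1 was 1.04-fold apart and Omd 2.10-fold. Trps1 was 2.12-fold higher in E10-P56 and Pth1r 2.85-fold higher in the adult pulse. None of 4 osteoblast regulators and none of 5 genes that act with collagenase passed 2-fold.

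Tenocytes outside the cluster, where Col2a1 was found, also held other cartilage matrix genes. At least 2-fold higher there than in all other cells were 6 of 14 such genes in E10-P56, against 6.14% of all genes, and 10 of 14 in the adult pulse, against 6.54%. Col11a1, a partner of type II collagen in its fibrils, stood at 897 and 881 CPM, Cilp2 at 810 and 521 CPM, Comp at 732 and 604 CPM and Chad at 396 and 509 CPM. In the endoneurial cluster, where Sox9 was highest, its close relative Sox8 stood at 80.8 and 62.8 CPM. Col9a2, a collagen of cartilage, stood at 150.4 and 110 CPM. Most cartilage matrix genes were not raised there. Only 1 of 14 was at least 2-fold higher than elsewhere in each library, against 5.72% and 4.41% of all genes. The median ratios of that list were 0.0872 (E10-P56) and 0.0214 (adult pulse), against 1.05 and 0.977 over all genes. Of 7 tested chondrogenic regulators, the list of Sox8, 2 were higher in each library. Unlike Sox9, Sox8 and Col9a2 were not kept out of the clustering.

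The genes whose levels ran most like those of Sox9 and Col2a1 were sought over 12 points, 6 gated types in each of 2 libraries, by Pearson's r of log2(CPM + 1). For Sox9 they were Penk (r = 0.97), Cpne8 and Bnc2 (r = 0.96), and for Col2a1 Atp6v0a4 (r = 0.996), Cilp2 and Fam159b (both r = 0.98). For the others the nearest genes were Dhx37 for Dlx5 (r = 0.83), Tyms for Runx2 (r = 0.89), Hunk for Bglap (r = 0.96), Rpl13a-ps1 for Bglap2 (r = 0.98), Mbd3 for Acan (r = 0.85), Gm15222 for Mmp13 (r = 0.88) and Cox8b for Ostn (r = 0.85), and Sp7 had too few UMIs. The 6 types were SMCPs, VSMCs, fibroblasts, pericytes, perineurial cells and tenocytes. Endoneurial cells, where Sox9 was highest, were left out because E10-P56 had only 24 of them. The points of a library share its depth and cell capture, and types of few cells give noisy points, so these values are a description.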

How the data were processed

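The values, as deposited by the authors, are whole UMI counts of each gene in each cell. Per the file headers they were made with Cell Ranger (E10-P56 with version 5.0.0, the other library with 3.0.2), and the study's methods name mm10 with reporter sequences added. The 10 genes and all lists were chosen with earlier results of these data known. Each cell was given the type whose markers had the highest mean z-score of log-normalised counts (at least 1, with at least 3 markers detected); fibroblasts were gated among the remainder with at least 5 of 10 markers. Clusters came from leidenalg 0.10.2 on a graph of shared neighbours (2000 variable genes without the 10, 30 principal components, 20 neighbours, resolution 0.5). Levels between libraries were compared as CPM ratios for genes with at least 100 UMIs in both together, and called at 2-fold; populations were compared with other cells at 2-fold and at least 10 UMIs. Named genes were the 10, for each the 3 genes of highest Pearson's r among those with at least 200 UMIs, and for each list the 3 with most UMIs in cells holding at least 3 of the 10. Scripts were tested on simulated data. Scrublet's own threshold marked too few cells, so the top 5% of scores served as an alternative. Leaving out the Chad-rich cluster, or the richest cell of each gene or list, was chosen after seeing the data.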

Additional observations from a re-analysis of the deposited data

Results flagged for a closer look

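Some of the 10 genes stood above their level in the kept cells in the barcodes that the depth and mitochondrial filters had removed. In the 628 removed barcodes of the adult pulse, with 999942 UMIs in all, the levels were 31 CPM for Dlx5 (21.1 to 44.0, against 4.92 in kept cells), 20 CPM for Runx2 (12.2 to 30.9, against 8.52), 26 CPM for Bglap (17.0 to 38.1, against 6.75), 44 CPM for Bglap2 (32.0 to 59.1, against 7.91), 11 CPM for Acan (5.49 to 19.7, against 0.367) and 35 CPM for Ostn (24.4 to 48.7, against 1.35). In the 2149 removed barcodes of E10-P56, with 4959749 UMIs, Acan stood at 6.855 CPM (4.75 to 9.58, against 4.02). The cells behind these UMIs were not gated.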

How the results depend on the processing

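With every cell thinned to 1500 UMIs, 5 rather than 8 combinations of gene and library had their highest type apart from the next, 8 and 13 rather than 28 and 32 cells held at least 3 genes (E10-P56 and adult pulse), and 0 genes were past 2-fold between the libraries, with only 2 left to compare. Asking for 2 UMIs per gene left 10 and 18 such cells. Without the Chad-rich cluster, 2 rather than 4 genes had their highest type in common, and 1 (Col2a1) rather than 4 was past 2-fold. Under the other alternatives the number of genes past 2-fold stayed at 3 to 5, but not always with the same genes. Dlx5 joined them with no mitochondrial limit, with median-of-ratios scaling and in fibroblast-gated cells, where Acan and Mmp13 had too few UMIs to compare. Ostn joined them with the mean over cells. Without the richest cell of each gene Col2a1 took the place of Mmp13. Only 18 levels were followed in this way, those with a lower limit of at least 10 CPM in gated types of at least 30 cells, myofibre-gated cells left out. Of their 123 recomputed values, 97 lay inside the interval of the main value and 26 outside it. Lower levels, and Sox9 in the endoneurial-gated cells of E10-P56, were not followed. No paired analysis was possible because each group had 1 library. Depth limits Sp7, Mmp13 and Bglap2 in E10-P56, for which no order of types could be read, and the split of osteocalcin reads between copies was not tested.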
